A study of Mus musculus with 6 samples.

Results

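Oxidative phosphorylation subunits were followed in B16-BL6 mouse melanoma cells that carried a CRISPR-Cas9 knockout of Ifngr1 (IFNγR1KO) and in scrambled control cells. Members were the protein-coding genes whose symbol begins with Nduf, Sdh, Uqcr, Cox4 to Cox8, Atp5, mt-Nd, mt-Co, mt-Cyb or mt-Atp, without the Ndufaf and Sdhaf assembly factors. The rule found 99 of the 55335 genes of the tables. Of these, 86 are encoded in the nucleus and 13 in mitochondrial DNA, and 91 (78 nuclear and 13 mitochondrial) had enough counts to be tested, among 13642 genes tested in all.

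RNA from 3 scrambled control cultures (replicates 1, 2 and 3) and 3 IFNγR1KO cultures (replicates 10, 11 and 12) was sequenced after poly(A) selection and counted per gene. All cells had received a lentiviral vector with Cas9 and a guide and had been selected with puromycin. The guide of the scrambled control, labelled WT, was directed at GFP, and that of IFNγR1KO at the first exon of Ifngr1, which encodes the ligand-binding chain of the interferon-γ receptor. The study describes single IFNγR1KO clones grown from single cells and cultures seeded in triplicate, so the p-values below measure the spread between cultures and not between clones. The labels name no added interferon.

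Libraries held 9402640 to 10579788 counts on genes in scrambled control and 6698956 to 7409479 in IFNγR1KO. Ifngr1 itself had 154, 144 and 172 counts in scrambled control and 80, 85 and 82 in IFNγR1KO, a log2 fold change of -0.47 (SE 0.16, edgeR quasi-likelihood adjusted p = 0.0729), and since an edit in the coding sequence can leave a message in place, its level is no check of the labels. The 7 melanocyte lineage markers fitted the labelled cell type in both groups, with summed levels of 31700 to 34700 and 27900 to 32800 CPM (counts scaled to the effective size of the library). The leukocyte markers Cd3e, Adgre1 and Itgam were at 0 in every library, and Ptprc and Cd68 had at most 1 and 11 counts. Of 6 fibroblast and endothelial markers Cdh5 was at 0 throughout, Pecam1 had at most 2 counts, and the summed level, nearly all of it Col1a2, was 53.6 to 71.5 CPM in scrambled control and 126 to 131 in IFNγR1KO. The part of other cells in the values below was not tested.

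Oxidative phosphorylation passes electrons from NADH (complex I) and succinate (complex II) through ubiquinone, complex III and cytochrome c to oxygen at complex IV, and the proton gradient built on the way drives ATP synthase (complex V). Complexes I, III, IV and V are mosaics of proteins made from nuclear genes and a few made inside the mitochondrion from its own DNA, whereas all proteins of complex II come from nuclear genes. Cells therefore have to match messages from both genomes, and in melanoma respiration is known to differ between cell states.

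Few subunit messages passed the test between IFNγR1KO and scrambled control. At an adjusted p under 0.05, 2 of the 78 nuclear members tested were called, Sdhd (lower) and Cox6a2 (higher), against 15.3% of all 13642 genes tested. The direction-wise backgrounds were 7.73% higher and 7.62% lower, and among protein-coding genes with a mean of at least 50 CPM 15.9% were called. None of the 13 mitochondrial members was called, and none of them had an unadjusted p under 0.05. DESeq2 called the same nuclear members, Sdhd and Cox6a2, and no mitochondrial one, at a background of 13.2%. In bulk RNA, fewer cells of a type and less RNA per cell cannot be told apart.

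The log2 fold changes (IFNγR1KO minus scrambled control) of the nuclear members had a median of 0.01, with 43 estimates above 0 and 35 below, and the median over all genes tested was 0.00. Cox6a2 aside, they lay between -0.77 and 0.45. The 95% confidence interval stayed within 1 log2 unit of 0 for 75 of 78 nuclear members and within 0.5 for 36; smaller changes thus lay inside the interval of many members. The groups did not overlap in CPM for 3 of 78 members, Sdhd, Cox6a2 and Cox7a2l, against 32.6% of all genes tested and 32.9% of protein-coding genes with at least 50 CPM. An unadjusted p under 0.05 was reached by 6.41% of the nuclear members and 28.9% of all genes tested.

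**Figure D1:**
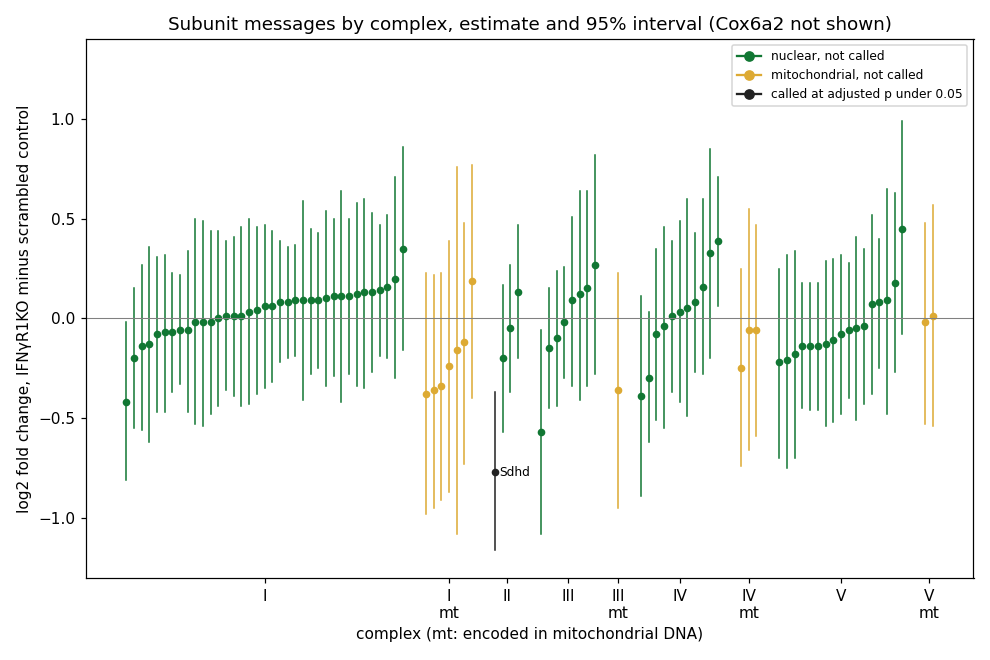
Log2 fold change of each tested subunit message with its 95% confidence interval (vertical lines), ordered by size within each complex, for nuclear genes (green) and mitochondrial genes (mt, yellow). Cox6a2, at 3.66, is left out of the axis, and Sdhd at -0.77 is the called message shown in black.

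Nuclear members of scrambled control 3 and IFNγR1KO 12 stood below those of the other libraries. In scrambled control 3, 74 of 78 nuclear members lay below the mean of their own group, and in IFNγR1KO 12 it was 73 of 78. The summed nuclear level was 21614, 23256 and 16399 CPM in scrambled control 1, 2 and 3 and 22374, 22173 and 16390 CPM in IFNγR1KO 10, 11 and 12. Each group therefore contained 1 library with a low level, and the remaining libraries of both groups were close to each other.

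Other short genes were also low in these libraries, as a group. Among protein-coding genes outside the set with up to 750 exonic bases, the median deviation from the group mean was -0.37 in scrambled control 3 and -0.29 in IFNγR1KO 12 on the log2 CPM scale, and among those over 6000 bases it was 0.15 and 0.13. The median of nuclear members was low in every bin of exonic length, though single members were not. Sdha measured 138, 175 and 198 CPM in scrambled control 1, 2 and 3 and 134, 133 and 178 in IFNγR1KO 10, 11 and 12. Exonic length joins the exons of all transcripts of a gene. Atp5l has 6443 exonic bases but a longest protein-coding transcript of 544, so these bins do not separate members by message length. The 10 members of up to 750 bases deviated by a median of -0.47 and -0.36 in these libraries, and the 3 members over 6000 bases by -0.29 and -0.36. The labels name no batch that both libraries share.

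**Figure D2:**
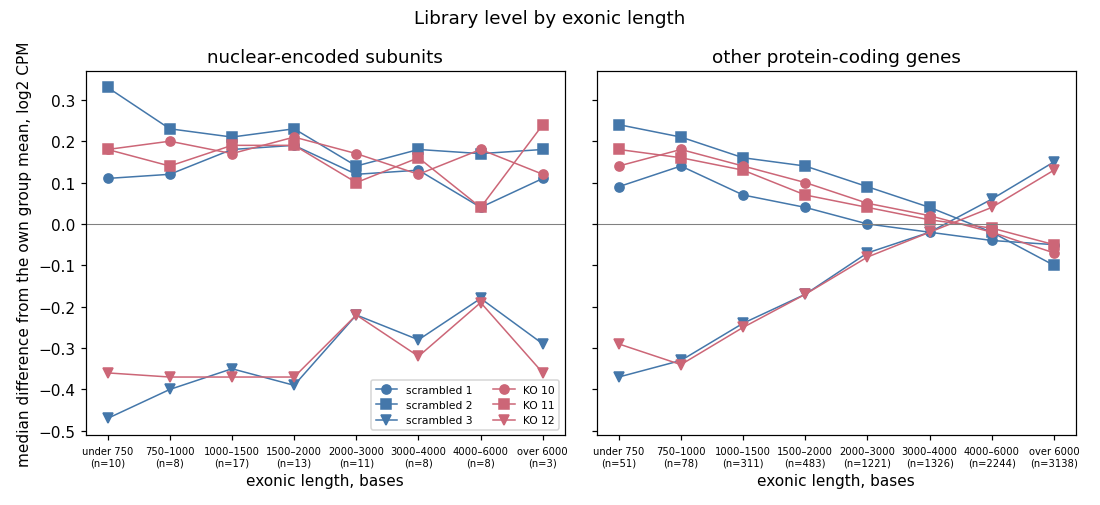
Median difference of each library from the mean of its own group (log2 CPM) for genes binned by exonic length, nuclear subunits on the left and other protein-coding genes on the right, with the number of genes under each bin. Scrambled control 3 and IFNγR1KO 12 (triangles) lie below 0 at every length among subunits, and for other genes pass from -0.37 and -0.29 among the shortest to 0.15 and 0.13 among the longest.

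Counts of called members moved with the libraries used, and so did those of all genes called (2093 with all 6 libraries). Leaving out 1 library in turn gave 4 called members without scrambled control 3, where 1782 of all genes were called. Without IFNγR1KO 12 it was 5 members and 2824 of all genes. The count was 1 without scrambled control 1 (1697 of all genes) and 1 without scrambled control 2 (1087). Without IFNγR1KO 10 or IFNγR1KO 11 it stayed at 2, with 1095 and 1028 of all genes called. With the slope of level on length in each library added to the fit as a term, an alternative chosen after the data had been seen, 11 members were called against 31.0% of all genes, and without scrambled control 3 and IFNγR1KO 12 it was 10 against 22.3%. The same 10 members were called both ways. The length slope was -0.04 in scrambled control 3 and -0.05 in IFNγR1KO 12, and -0.18 to -0.25 in the other libraries. Both alternatives thus turn on the same libraries, and their agreement is not separate support. Higher in IFNγR1KO in both were Cox4i1, Cox6a2, Cox7a2l, Ndufa7 and Atp5s, and lower were Sdhd, Uqcrh, Ndufa5, Cox7a2 and Cox5a. Uqcrq was called higher only with the length term. Even so the share of members called stayed under the background, and the median SE of the nuclear members fell from 0.19 to 0.10 and 0.11.

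In complex I, which oxidizes NADH, none of the 37 nuclear members tested was called, with Ndufa4 counted here by its symbol. Their median log2 fold change was 0.06 (range -0.42 to 0.35). In its catalytic core, which holds the flavin and the iron-sulfur clusters, Ndufs1 had a log2 fold change of 0.09 (SE 0.13), Ndufs3 of -0.07 (SE 0.14) and Ndufv1 of 0.08 (SE 0.13). The accessory members spanned the whole range, with Ndufa5 lowest and Ndufa7 highest.

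Ndufa5, an accessory protein of the peripheral arm, measured 132, 179 and 116 CPM in scrambled control and 114, 119 and 85.9 in IFNγR1KO. The groups overlapped, and the log2 fold change of -0.42 (SE 0.18) had an edgeR adjusted p of 0.148. With the length term it was -0.41 (SE 0.10, edgeR adjusted p = 0.00457). Ndufa7, also an accessory protein, measured 149, 136 and 86.7 CPM against 187, 182 and 104, with 0.35 (SE 0.24, edgeR adjusted p = 0.365), and 0.34 (SE 0.11, adjusted p = 0.0282) with the length term.

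Ndufa4, named for complex I but now known as a protein of complex IV, had the highest level per length of the Nduf genes, a TPM of 1170 (counts per exonic base, scaled to a common total in each library) as a mean of the 6 libraries. It measured 763, 721 and 450 CPM in scrambled control and 738, 751 and 425 in IFNγR1KO, and its log2 fold change was -0.02 (SE 0.24). The low library of each group set this spread, and without both of them the difference was 0.00 (SE 0.10). Its relative Ndufa4l2, known to be induced by hypoxia, had 4 to 7 counts in scrambled control and 6 to 11 in IFNγR1KO and was not tested.

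Complex II, succinate dehydrogenase, contained the only member called lower in the fit of all 6 libraries without a length term. Sdhd encodes the small membrane anchor that, with Sdhc, binds heme and ubiquinone, and lies on chromosome 9 (GRCm38 chr9:50596357-50603812, minus strand). Sdhd measured 307, 267 and 209 CPM in scrambled control and 172, 168 and 120 in IFNγR1KO. Every IFNγR1KO library was below every scrambled control library, including scrambled control 3 with its low level of short messages. The log2 fold change was -0.77 (SE 0.18, 95% interval -1.16 to -0.37, edgeR adjusted p = 0.0142), which is short of the 2-fold change required of a differentially expressed gene (DEG), and DESeq2 gave -0.78 (adjusted p = 6.5e-04).

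The other genes of complex II did not follow it. Sdhb, the iron-sulfur protein, measured 335 ± 37.8 CPM in scrambled control and 367 ± 49.6 in IFNγR1KO (SD, n = 3), with a log2 fold change of 0.13 (SE 0.15). Sdhc was at 177 ± 25.0 and 171 ± 13.7 CPM (SD, n = 3), with -0.05 (SE 0.15), and Sdha, the flavoprotein, at 170 ± 30.7 and 148 ± 26.0 (SD, n = 3), with -0.20 (SE 0.17). None of these was called.

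Sdhd was named for its call on these same counts. Ratios within a library therefore repeat that difference without normalization, and neither they nor their permutation test are separate support. There were 0.906, 0.719 and 0.706 Sdhd counts per Sdhb count in scrambled control 1, 2 and 3, and 0.420, 0.444 and 0.382 in IFNγR1KO 10, 11 and 12. The groups were well apart, with means of 0.777 ± 0.112 and 0.416 ± 0.0313 (SD, n = 3). Per Sdhc count the means were 1.47 ± 0.182 and 0.892 ± 0.106 (SD, n = 3). The exact two-sided permutation test gave p = 0.100 for each ratio, the smallest value that 3 against 3 libraries allow. In fits without a library the log2 fold change of Sdhd ranged from -0.90 to -0.62, and the call was lost without scrambled control 1 (adjusted p = 0.0533) and without scrambled control 2 (adjusted p = 0.0679), edgeR in each case.

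The stretch before Sdhd is shown because the gene shares its start region with Timm8b, a chaperone of the mitochondrial intermembrane space transcribed the other way. The annotated starts are 97 bases apart. The 80 bases from the Sdhd side (RefSeq, GRCm38.p6, chr9:50603850-50603929, minus strand, 5′ to 3′) are set beside 80 bases before Sdhb (chr4:140961123-140961202, plus strand), with matches to motifs of the factors NRF1 (GCGC, any base, then TGCGC) and GABPA (CCGGAAG), on either strand, in capitals.

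Sdhd: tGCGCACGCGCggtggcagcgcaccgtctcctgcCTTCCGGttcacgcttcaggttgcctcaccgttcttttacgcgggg

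Sdhb: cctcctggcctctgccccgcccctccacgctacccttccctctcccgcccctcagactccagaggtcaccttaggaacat

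The Sdhd stretch holds a match to each of these motifs, and the Sdhb stretch holds neither, although the whole RefSeq promoter window of Sdhb (250 bases before to 50 after its start) has a GABPA match. The NRF1 match of the Sdhd stretch lies past the annotated start of Timm8b (chr9:50603910), within that gene. At its other end the stretch stops short of the annotated start of Sdhd (chr9:50603812). Timm8b, from the same start region, had 1501, 1565 and 844 counts in scrambled control and 981, 959 and 513 in IFNγR1KO, with a log2 fold change of -0.23 (SE 0.27, 95% interval -0.81 to 0.35, edgeR adjusted p = 0.632). Its interval includes both 0 and the estimate of Sdhd, so that a difference between the neighbours was not shown.

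Matches to motifs of NRF1, GABPA and YY1, factors known to act on respiratory genes, were present in a larger share of the members' promoters than of all promoters. Of the called members only Sdhd has a promoter in the table used. RefSeq promoters (250 bases before to 50 after a start) were found for 69 of the 99 members. The NRF1 motif was present in 24.6% of these against 5.19% of all 27025 promoters, the GABPA motif in 23.2% against 9.93%, and the YY1 motif (AAGATGGCG) in 10.1% against 1.64%. Tested members with any of these motifs (34) had a median log2 fold change of 0.01, and the 31 tested members with none had 0.00. A match is a string of letters and not a bound site.

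Complex III, which passes electrons from ubiquinol to cytochrome c, had no called member among the 8 nuclear genes of the rule (median 0.03, range -0.57 to 0.27). Cyc1, the cytochrome c1 of this complex, falls outside the rule by its symbol and was read with the electron carriers. It measured 419 ± 68.3 CPM in scrambled control and 409 ± 40.3 in IFNγR1KO (SD, n = 3), with a log2 fold change of -0.03 (SE 0.16). The core proteins Uqcrc1 and Uqcrc2 and the Rieske protein Uqcrfs1 lay between -0.15 and 0.09. Uqcr10, a small subunit with the highest level per length (1610 TPM), measured 391, 449 and 235 CPM in scrambled control and 433, 463 and 270 in IFNγR1KO, a log2 fold change of 0.12 (SE 0.24).

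Uqcrh, the acidic hinge protein at the cytochrome c docking site, had the lowest estimate of the complex. It measured 309, 329 and 199 CPM in scrambled control and 208, 232 and 123 in IFNγR1KO, and the groups overlapped because scrambled control 3 was lower than IFNγR1KO 10 and 11. Its log2 fold change was -0.57 (SE 0.24, edgeR adjusted p = 0.126). Called were its -0.58 (SE 0.10, adjusted p = 4.7e-04) with the length term and its -0.54 (SE 0.11, adjusted p = 0.00149) without the low library of each group, both from edgeR.

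In complex IV, cytochrome c oxidase, several proteins have a general and a muscle, lung or testis form. The general forms carried nearly all counts. Cox4i1 was highest per length (1510 TPM), and Cox4i2, the lung form, had 2 counts in IFNγR1KO 10 and 0 in the other libraries. Cox6b2, Cox7b2, Cox8b and Cox8c were at 0 in all 6 libraries, which allows up to 3 counts in each, or 0.0966 to 0.142 CPM per count by library. Cox7a1, the heart and muscle form, had 9, 4 and 2 counts in scrambled control and 9, 11 and 2 in IFNγR1KO and was not tested.

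Cox6a2, the heart and skeletal muscle form of the subunit, was the only member that met the criteria of a DEG, against 5.20% of all genes tested. It had 4, 1 and 1 counts in scrambled control and 31, 14 and 14 in IFNγR1KO. Cox6a2 thus passed the filter on low counts through the IFNγR1KO libraries alone, the group in which it was high. All IFNγR1KO libraries were above all scrambled control libraries, at a level that remained very low. The fitted log2 fold change was 3.66 (SE 0.60, edgeR adjusted p = 0.00173), and the 59 counts against 6, scaled to library size, gave a ratio of 13.5 with a 95% interval of 5.86 to 38.3 for counting error alone. The call was kept in all 6 fits without a library (edgeR adjusted p 6.2e-05 to 0.0234). These fits and the ratio use the same few counts and are not separate support.

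In TPM Cox6a2 was at 0.771 ± 0.694 in scrambled control and 10.3 ± 4.84 in IFNγR1KO (SD, n = 3), while its general form Cox6a1 was at 1300 ± 112 and 1400 ± 47.4 (SD, n = 3). Cox6a1 had a log2 fold change of 0.08 (SE 0.16) and was not called. Of the exonic bases of Cox6a2 (chr7:128205435-128206387, minus strand) 10.3% lie under a gene on the other strand, Itgad, and the strand setting of the counting is not given in the sources used here.

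Cox7a2l, a factor of respiratory supercomplexes that resembles Cox7a2, measured 126, 126 and 100 CPM in scrambled control and 168, 158 and 133 in IFNγR1KO. The groups did not overlap, yet the log2 fold change of 0.39 (SE 0.15) had an edgeR adjusted p of 0.102, and with the length term 0.39 (SE 0.09) had 0.00375. Cox7a2 itself went the other way, with 398, 395 and 258 CPM against 311, 319 and 174, and overlapped (-0.39, SE 0.23, edgeR adjusted p = 0.302). With the length term the estimate was -0.40 (SE 0.10, adjusted p = 0.00771). Cox4i1, the general form of its subunit IV, measured 966, 950 and 560 CPM against 1220, 1180 and 707, with 0.33 (SE 0.24, edgeR adjusted p = 0.416), and 0.33 (SE 0.10, adjusted p = 0.0187) with the length term. Cox6b1 (-0.08, SE 0.20) and Cox8a (0.01, SE 0.18) were near 0.

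ATP synthase, complex V, had no called member among 17 nuclear genes tested (median -0.08, range -0.22 to 0.45). Its catalytic head (Atp5a1, Atp5b, Atp5c1, Atp5d and Atp5e) lay between -0.14 and 0.09. Atp5b, the catalytic β subunit and the most abundant nuclear member in CPM, measured 2110, 2590 and 2220 CPM in scrambled control and 2260, 2220 and 2150 in IFNγR1KO, a log2 fold change of -0.06 (SE 0.16). The c ring of the membrane rotor is encoded by 3 genes that give the same mature protein. Atp5g3 was highest of these per length (803 TPM), followed by Atp5g2 (444 TPM) and Atp5g1 (84.6 TPM), and their log2 fold changes were -0.11, 0.08 and -0.14, each with an SE of 0.15 to 0.19. No shift between the genes of the c ring was thus found beyond the replicate error.

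Atp5s, a coupling factor, had the highest estimate of complex V, 0.45 (SE 0.25, edgeR adjusted p = 0.248), and 0.44 (SE 0.16, adjusted p = 0.0425) with the length term. An Atp5o identifier that joins Donson and Atp5o in 1 transcript was at 0 in every library.

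Summed over the nuclear members of each complex, the groups overlapped throughout. Complex I held 5480 ± 1020 CPM in scrambled control and 5590 ± 1020 in IFNγR1KO (SD, n = 3). Genes were placed in complexes by symbol, so the sum of complex I includes Ndufa4 (645 ± 170 and 638 ± 185 CPM) and that of complex IV does not. For the same reason the sum of complex III leaves out Cyc1. Complex III held 2190 ± 510 and 2260 ± 504, complex IV 4130 ± 958 and 4350 ± 949, and complex V 7680 ± 1020 and 7260 ± 865. For complex II the values were 943 ± 82.0 and 840 ± 67.0. The differences of complexes I, III, IV and V were smaller than the SD of either group. That of complex II, which holds Sdhd, was larger than both, with ranges of 852 to 1010 and 766 to 898 CPM that overlapped.

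The 13 mitochondrial messages had a median log2 fold change of -0.16, with 2 estimates above 0 and 11 below. Their median SE of 0.27 was larger than the 0.19 of nuclear members, and none of the 13 intervals was within 0.5 of 0. They made up 1.02, 0.463 and 0.546% of the counts on genes in scrambled control 1, 2 and 3 and 0.637, 0.687 and 0.450% in IFNγR1KO 10, 11 and 12. Scrambled control 1 stood above the other 5 libraries, IFNγR1KO 10 and 11 fell between the values of scrambled control, and IFNγR1KO 12 was lowest. The means were 0.675 ± 0.299% and 0.591 ± 0.125% (SD, n = 3), while nuclear members took 2.00 ± 0.292% and 2.05 ± 0.271% (SD, n = 3).

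The sign of the median depended on scrambled control 1. It was the highest of its group for 11 of the 13 mitochondrial messages, and without it the median log2 fold change was 0.19 in place of -0.16. Without IFNγR1KO 12, the lowest of its group for 13 of 13, it was 0.06. The mitochondrial ribosomal RNAs, which belong to no complex, were also highest in scrambled control 1, with 289, 215 and 147 CPM in scrambled control and 235, 241 and 175 in IFNγR1KO. A direction for the mitochondrial messages is therefore not given.

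**Figure D3:**
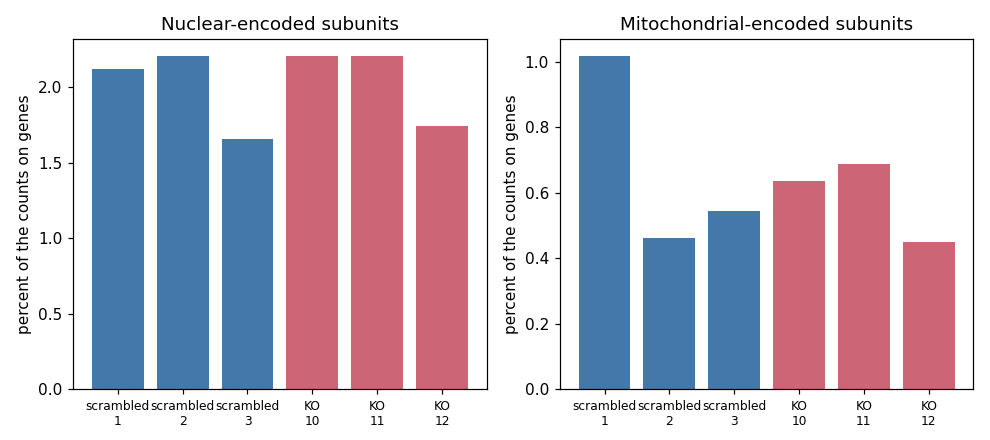
Percent of the counts on genes that fell on nuclear-encoded (left) and mitochondrial-encoded subunits (right) in each library, scrambled control in blue and IFNγR1KO (KO) in red, 1 bar per library. Scrambled control 3 and IFNγR1KO 12 are low on the left at 1.66% and 1.74%, and scrambled control 1 is high on the right at 1.02%.

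Together mt-Co1, mt-Cytb and mt-Nd1 took 76.6 to 78.0% of the mitochondrial messages in every library. mt-Co1, the catalytic subunit of complex IV, measured 3530, 1580 and 1810 CPM in scrambled control and 2410, 2610 and 1640 in IFNγR1KO (-0.06, SE 0.28 as log2 fold change). mt-Cytb, the cytochrome of complex III, measured 2710, 1310 and 1380 against 1550, 1630 and 1020 (-0.36, SE 0.27). In both, scrambled control 1 was highest and IFNγR1KO 10 and 11 exceeded scrambled control 2. mt-Nd1, a membrane subunit of complex I, measured 1750, 904 and 921 against 1040, 1110 and 627 (-0.36, SE 0.27). These changed in step from library to library, as did mt-Nd5 (-0.38, SE 0.28), and adjusted p-values of mt-Nd1, mt-Nd5 and mt-Cytb from edgeR were 0.418, 0.415 and 0.425.

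The remaining subunits of complex I from mitochondrial DNA were mt-Nd2 (-0.12), mt-Nd4 (-0.24), mt-Nd6 (-0.34), mt-Nd4l (-0.16) and mt-Nd3 (0.19). mt-Nd6, the only one transcribed from the other strand, measured 239, 108 and 122 CPM in scrambled control and 135, 142 and 93.6 in IFNγR1KO. It too was highest in scrambled control 1. Because the strand setting of the counting is not given, the strand these reads came from is not known. In complex IV, mt-Co2 was at -0.06 and mt-Co3 at -0.25. The proton channel subunit mt-Atp6 and its partner mt-Atp8 of complex V were at -0.02 and 0.01.

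Levels of the mitochondrial messages cannot be compared with each other across the whole set. Part of the mitochondrial DNA has a near-identical copy on chromosome 1, annotated as the genes Gm29216, Gm28661, Gm10925, Gm28437, Gm28438, Gm10222 and Gm28439, and the tables set aside 3.76 to 4.61% of their reads as not uniquely aligned. The 5 messages with at least 99% of their bases under such a copy (mt-Co2, mt-Atp6, mt-Co3, mt-Nd3 and mt-Nd4l) had 45.5 to 397 counts per kilobase, and the 5 without an annotated copy, mt-Atp8 aside, had 2310 to 12000. Partly covered were mt-Co1 (31.3%), with 12400 counts per kilobase, and mt-Nd4 (63.6%), with 1800.

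The copies had counts of their own, 1673 for Gm28661 over all libraries beside 1630 for mt-Co2 and 1399 for Gm10925 beside 1498 for mt-Atp6. For mt-Nd3 and Gm28438 a single base differs in 345 compared, T3C, counted from 1 at the first base of mt-Nd3 and shown in capitals in the first bases of each (GRCm38, chrM:9459-9491, plus strand, and chr1:24613087-24613119, minus strand).

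mt-Nd3: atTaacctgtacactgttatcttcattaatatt

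Gm28438: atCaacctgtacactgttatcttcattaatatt

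A read that misses this base belongs to either place. The counts of these 5 messages are therefore uncertain, and the 7 others without a full copy, mt-Atp8 aside, had log2 fold changes of -0.38 to -0.06 (median -0.34), again with 0 of 7 called and none with an unadjusted p under 0.05. Without scrambled control 1 the estimates of these 7 lay between 0.02 (mt-Nd1) and 0.38 (mt-Co1), so no direction is given for them either. mt-Atp8 had no annotated copy of at least 50 bases but only 244 counts per kilobase, and a copy in unannotated sequence was not sought. It shares 43 bases with mt-Atp6, a shorter stretch than the search could report, and Gm10925 covers 99.6% of mt-Atp6. In the shared bases (chrM:7927-7969) the start codon of mt-Atp6 is in capitals.

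mt-Atp8 and mt-Atp6: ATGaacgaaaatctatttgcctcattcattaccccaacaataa

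Reads within these bases belong to both genes. Among nuclear members, 18 of 86 had a stretch of at least 98% identity with another annotated transcript, and in 5 it covered at least 50% of the transcript.

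**Figure D4:**
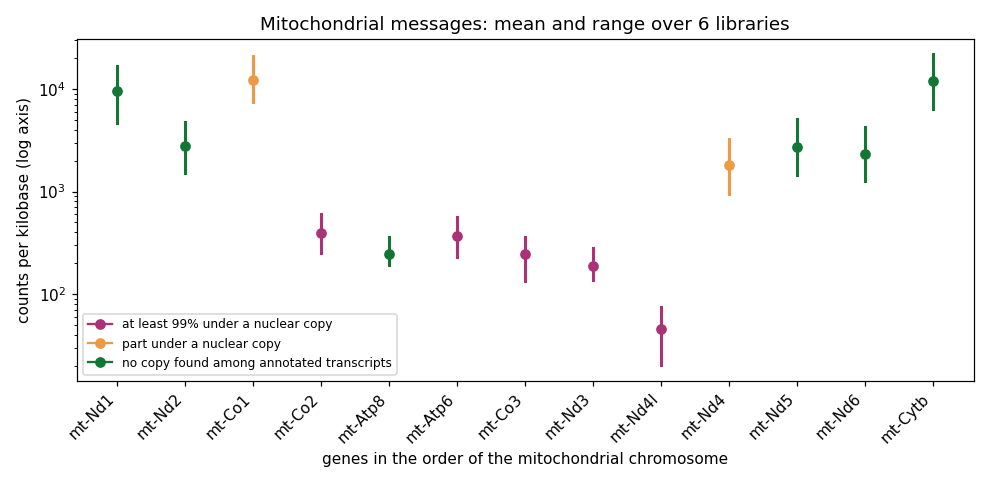
Counts per kilobase of each mitochondrial message (log axis; point, mean of 6 libraries; line, lowest to highest library) in the order of the mitochondrial chromosome, coloured by the share of bases under a nuclear copy. The 5 messages with at least 99% covered lie between 45.5 and 397, below every message with no copy found other than mt-Atp8 at 244.

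All 5 members on chromosome 9 were below 0, Sdhd (-0.77), Cox7a2 (-0.39), Cox5a (-0.30), Atp5l (-0.21) and Uqcrc1 (-0.15). Sdhd was the only one called in the fit of all 6 libraries without a length term. On the other nuclear chromosomes 30 of 73 members tested were below 0. The genes of chromosome 9 as a whole were low as well, with a median log2 fold change of -0.17 over 792 tested, 65.7% of them below 0, and 14.0% called lower against 4.04% called higher. Medians of the other 19 nuclear chromosomes ranged from -0.04 to 0.05. Cox5a encodes a nuclear subunit of complex IV and Atp5l subunit g of ATP synthase. How far the chromosome-wide value enters that of Sdhd was not tested.

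**Figure D5:**
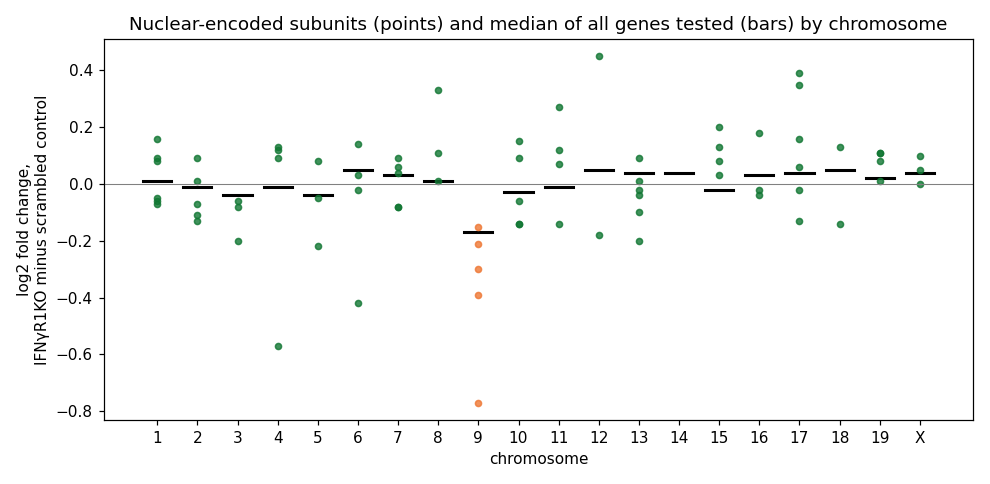
Log2 fold change of each tested nuclear subunit message (points, those on chromosome 9 in orange) and the median over all genes tested on the same chromosome (bars), with Cox6a2 left out of the axis. All 5 points of chromosome 9 and its bar at -0.17 lie below 0, and the bars of the other chromosomes lie between -0.04 and 0.05.

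Genes that build and serve the complexes were read from lists in the same fit. Of 45 assembly factors 1 was called, against 15.3% of all genes. Uqcc3, an assembly factor of complex III that acts around cytochrome b, fell from 53, 70 and 42 counts to 10, 13 and 3, a log2 fold change of -2.20 (SE 0.39, edgeR adjusted p = 0.0029). The groups were far apart, although Uqcr genes and mt-Cytb were not called. Of 19 genes for electron carriers 2 were called (10.5%, under the 15.3% of all genes). They were Coq8a (1.24, SE 0.16) and Coq8b (0.77, SE 0.20), both higher and both atypical kinases of ubiquinone synthesis. Their levels were 16.6 ± 1.20 against 39.2 ± 5.48 CPM and 7.91 ± 1.45 against 13.5 ± 1.94 CPM (SD, n = 3).

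Of 18 genes of the tricarboxylic acid cycle and its entry 11.1% were called, under the 15.3% of all genes tested. Pcx (pyruvate carboxylase, 0.56, SE 0.18) was called higher, close to the threshold (edgeR adjusted p = 0.0496). Idh3a (a subunit of NAD-dependent isocitrate dehydrogenase, -0.61, SE 0.13, also on chromosome 9) was called lower. Of 27 genes for expression of the mitochondrial genome 4 were called (14.8%, near the 15.3% of all genes tested), all of them higher. Among these were Tefm, the transcription elongation factor (211, 184 and 137 counts in scrambled control and 278, 268 and 154 in the smaller IFNγR1KO libraries), Mterf3 and Fastk. The fourth was Tfb1m, which methylates ribosomal RNA of the mitochondrion. The messages transcribed from mitochondrial DNA, as given above, were not called.

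None of 11 tested regulators of mitochondrial biogenesis was called by edgeR, against 15.3% of all genes tested, and 3 had an unadjusted p under 0.05. Of 14 mitochondrial proteases and chaperones 2 were called (14.3%, near the 15.3% of all genes). These were Lonp1, the matrix protease (log2 fold change 1.08, SE 0.15), and Hspa9, the matrix chaperone (1.02, SE 0.17), both higher. Lonp1 rose from 244 ± 25.4 to 515 ± 46.4 CPM and Hspa9 from 407 ± 64.8 to 825 ± 113 CPM (SD, n = 3).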

How the data were processed

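RNA-seq of 3 scrambled control and 3 IFNγR1KO cultures was analysed. Per the labels and methods, the authors used STAR 2.7.5a (build GRCm38, paired-end reads) and HTSeq 0.11.2, and the deposited values are counts of reads per gene that were not normalized. The annotation release and strand setting are not given in the sources used here. Reads assigned to no gene, ambiguous or not uniquely aligned stayed out of library sizes, and 46.0 to 47.0% of the reads of a table were assigned.

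Genes were named from GENCODE M21, which holds 55154 of 55335 identifiers. It writes cytochrome b as mt-Cytb, which was taken as mt-Cyb of the rule. The members and lists were chosen with earlier results of these data known. Counts were tested in edgeR 4.0.16 (R 4.3.3) with filterByExpr (minimum count 10, minimum total 15), TMM and the quasi-likelihood test, two-sided, with Benjamini-Hochberg adjustment over all genes tested. A gene was called at an adjusted p under 0.05 and was a DEG if the log2 fold change also exceeded 1 in size. CPM used effective library sizes and TPM all exonic bases. By the length of the longest protein-coding transcript, Sdhb in place of Sdhd is highest in complex II. Named were all mitochondrial members, called members, the highest per length of each complex, members with tissue variants or duplicate genes, members at 3 counts or fewer throughout and up to 3 called genes per list and direction. Members described for the length alternatives, Tfb1m, Timm8b, the remaining genes of complexes and chromosome 9, and single markers were named after their values were seen.

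Copies were sought with blastn 2.17.0 among annotated transcripts (at least 98% identity over 50 bases). Alternatives were DESeq2 1.42.0, other normalizations and filters, leaving out libraries, and a length term. The scripts were tested on simulated counts. A member and a marker are not reported here by name.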

Additional observations from a re-analysis of the deposited data

How the results depend on the processing

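The 2 called members stayed called with DESeq2, with size factors of DESeq2, upper quartile factors or library sizes without mitochondrial genes in edgeR, and with another filter of at least 1 CPM in 3 libraries. Without any filter, 2 nuclear members were called lower, Uqcrh being added. In fits that left out 1 library, 1 to 4 nuclear members were called higher and 0 to 3 lower, and 535 to 1372 of all genes higher and 457 to 1452 lower. With the length term, added after seeing the data, 1987 genes were higher and 2240 lower, and 6 and 5 nuclear members. Without scrambled control 3 and IFNγR1KO 12, also added, 1447 genes were higher and 1617 lower, and 5 nuclear members were higher and 5 lower. In none of these settings was a mitochondrial member called. Median log2 fold changes without 1 library were -0.12 to 0.16 for nuclear and -0.33 to 0.19 for mitochondrial members. As a percent of all reads of the tables, mitochondrial messages made up 0.314 and 0.275 in scrambled control and IFNγR1KO. A test against a log2 fold change of 1 left 134 of 710 DEGs.

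Signs of estimates turned in 43 instances, of 20 genes, all of them uncalled there. mt-Atp8 became 0.00 with DESeq2, -0.02 without a filter and -0.03 without both libraries. With upper quartile factors mt-Atp6 was 0.01 and Ndufa4 0.02. Cox8a was -0.02 without a filter and -0.07 without both libraries, which also gave 0.11 for mt-Nd4l and 0.00 for Ndufa4. Without 1 library the log2 fold change ranged from -0.53 to 0.02 for mt-Nd1, -0.33 to 0.31 for mt-Nd2, -0.06 to 0.47 for mt-Nd3, -0.49 to 0.21 for mt-Nd4, -0.43 to 0.16 for mt-Nd4l, -0.61 to 0.08 for mt-Nd5, -0.55 to 0.10 for mt-Nd6, -0.55 to 0.06 for mt-Cytb, -0.27 to 0.38 for mt-Co1, -0.30 to 0.24 for mt-Co2, -0.18 to 0.29 for mt-Atp6 and -0.15 to 0.29 for mt-Atp8. Among nuclear members it was -0.22 to 0.20 for Ndufa4, -0.13 to 0.22 for Cox8a, -0.12 to 0.03 for Atp5b, -0.25 to 0.09 for Cox6b1, -0.03 to 0.22 for Cox6a1, -0.11 to 0.32 for Uqcr10, -0.03 to 0.18 for Atp5g2 and -0.25 to 0.05 for Atp5g3. The cause was not tested.

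No paired analysis was possible because the replicate numbers of scrambled control (1, 2 and 3) and IFNγR1KO (10, 11 and 12) share none. Depth limited the values of the tissue variants, for which 1 count stood for 0.0966 to 0.142 CPM.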
